A study of Homo sapiens with 4 samples.

Results

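Polycomb proteins and the enzymes that write or erase histone methylation were examined as 37 named genes, out of 27633 genes tested in Nanopore cDNA libraries of H1 human embryonic stem cells (hESCs). The members were 9 genes of Polycomb repressive complex 2 (PRC2), 16 of Polycomb repressive complex 1 (PRC1), 8 enzymes acting on lysine 4 of histone H3 (H3K4), 2 H3K27 demethylases and 2 H3K9 methyltransferases. Transcript identifiers were joined to GRCh38 gene symbols, and a gene took the count of whichever of its isoforms had the largest mean. All 37 members were found, each with 1 gene identifier, and all 37 passed the filter of at least 10 counts in at least 2 libraries.

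H1 is an established hESC line, and both states carried the wild-type genotype. The naïve cells were kept in FINE medium and taken at 50% confluency, and the primed cells were kept in mTeSR and taken at 60 to 70% confluency. The study's methods add that the naïve cells were induced from the primed line under lowered oxygen, in a medium with the inhibitors Dasatinib, AZD5438, SB590885, PD0325901 and Y-27632 and the factors LIF, Activin A and bFGF, while the primed cells had normal oxygen. Each state had 2 replicates, and medium, oxygen, confluency and state cannot be told apart. Nothing states that the replicates were separate cultures, so p-values measure the spread between these libraries, which may be technical.

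PRC2 places methyl groups on H3K27, and PRC1 attaches ubiquitin to histone H2A through the RING proteins. The PCGF and CBX paralogs mark the different forms of PRC1. KMT2 and SETD1 enzymes methylate H3K4 at promoters and enhancers, KDM6 enzymes remove H3K27 methylation, and EHMT1 and EHMT2 methylate H3K9. Naïve and primed hESCs are known to differ widely in H3K27 methylation, and many developmental promoters of primed cells carry H3K4 and H3K27 methylation together.

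The totals were 129276054 to 161548901 counts per library, summed over transcripts. On the gene-level scale used below, CPM (counts scaled to the size of the library, with TMM factors), 3 counts, the upper limit that a count of 0 allows, come to 0.0978 to 0.130 CPM. These limits, and the intervals given below, cover counting error only. All 8 naïve markers were lower and all 8 primed markers higher in the primed libraries by edgeR's quasi-likelihood test with TMM. The naïve marker KLF17 changed least, with 2200 and 2423 counts in naïve hESCs against 2083 and 2236 in primed hESCs. Its log2 fold change of -0.41 was smaller than the shift of 0.64 between scalings described below. Of the primed markers, 3 were at 0 in both naïve libraries. A list of 9 trophoblast and amnion markers also moved with the state. Its summed level was 1669 and 2002 CPM in the naïve libraries and 8.96 and 6.48 CPM in the primed ones, with 8 of the 9 lower in the primed state. Most of that sum was CGA, a placental hormone subunit, with 35747 and 47550 counts against 0 and 1. GATA3, a trophoblast transcription factor, had 976 and 1151 counts against 15 and 16. The part of this signal in the changes below was not tested, and in such bulk samples fewer cells of a type and less RNA per cell cannot be told apart.

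Of the 37 members, 26 differed between the states at an adjusted p under 0.05, in edgeR's quasi-likelihood test after Benjamini-Hochberg correction across all genes. That is 9 higher and 17 lower in primed hESCs. Over all genes the share called was 70.0%, with 37.4% higher and 32.6% lower, so the count of members called lay at the background. The levels of the naïve and primed libraries did not overlap for 34 of the 37, against 84.4% of all genes. Large changes were fewer among the members. A called log2 fold change (primed over naïve) beyond 1 was seen for 9 of the 37, against 47.1% of all genes. The median log2 fold change was -0.30 over the members and 0.08 over all genes.

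The direction of moderate changes depended on the scaling. The naïve libraries had TMM factors of 0.779 and 0.824 and the primed libraries 1.25 and 1.24. With library size in place of TMM the median of all genes rose to 0.72, a shift of 0.64, and 18 members were then called higher and 6 lower, against 56.2% and 16.3% of all genes. Such a change of scaling moves all genes by nearly the same amount, and 14 members lay above the median of all genes and 23 below it. Of the 26 members called, 14 kept call and direction under TMM, library size, DESeq2 and TMM over protein-coding genes. These were JARID2, BMI1, PCGF1, CBX6, CBX7, CBX8, KDM2B, BCOR, RYBP, YAF2, KMT2A, KMT2C, KMT2D and EHMT2. Of these, CBX8 passed the count filter only through the naïve libraries, so its direction was fixed beforehand.

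**Figure D1:**
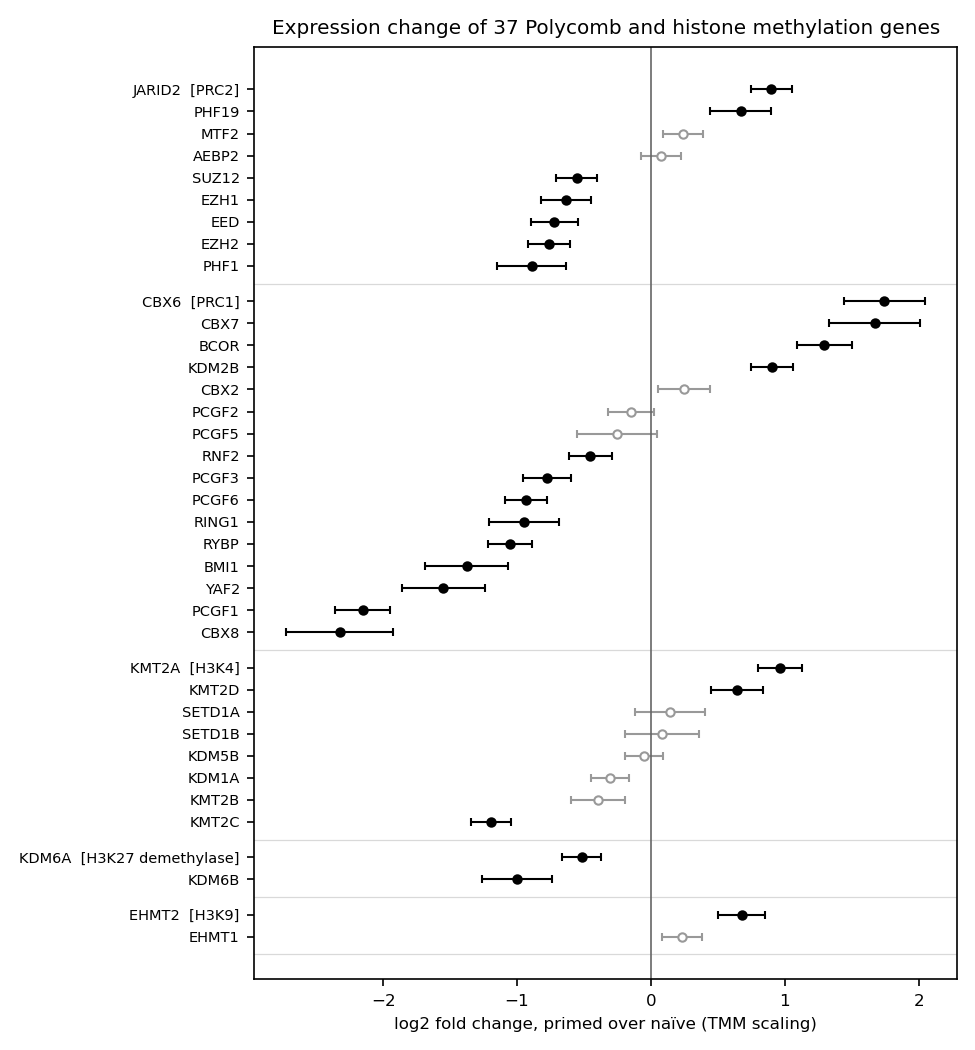
Log2 fold change of each member (x axis, primed over naïve, TMM scaling), grouped by complex or enzyme class; bars are the standard error of the fit with 2 libraries per state, black points were called at an adjusted p under 0.05 and open grey points were not. PCGF1 and CBX8 lie farthest to the left, below -2, and CBX6 and CBX7 farthest to the right, above 1.5.

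The 250 bases before the RefSeq start of 4 members are printed because these had the largest changes in each direction among the 34 members with an entry in RefSeq's GRCh38.p14 promoter table (CBX2, CBX8 and SETD1B had no entry). Each is written 5′ to 3′ on the strand of the gene, with CG dinucleotides, the sites of DNA methylation that KDM2B's zinc finger binds when unmethylated, in capitals.
PCGF1 (chr2:74507696-74507945, minus strand): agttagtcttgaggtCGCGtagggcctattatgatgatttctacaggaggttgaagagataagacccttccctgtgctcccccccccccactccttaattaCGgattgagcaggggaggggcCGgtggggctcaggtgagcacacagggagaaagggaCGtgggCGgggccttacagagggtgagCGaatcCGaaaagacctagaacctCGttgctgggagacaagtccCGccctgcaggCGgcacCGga
YAF2 (chr12:42238249-42238498, minus strand): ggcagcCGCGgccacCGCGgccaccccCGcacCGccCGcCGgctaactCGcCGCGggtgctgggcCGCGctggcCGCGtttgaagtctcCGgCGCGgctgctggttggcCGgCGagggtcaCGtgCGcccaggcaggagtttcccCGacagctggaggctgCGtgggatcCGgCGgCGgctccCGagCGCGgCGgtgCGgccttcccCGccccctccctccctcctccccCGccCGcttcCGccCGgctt
CBX6 (chr22:38872217-38872466, minus strand): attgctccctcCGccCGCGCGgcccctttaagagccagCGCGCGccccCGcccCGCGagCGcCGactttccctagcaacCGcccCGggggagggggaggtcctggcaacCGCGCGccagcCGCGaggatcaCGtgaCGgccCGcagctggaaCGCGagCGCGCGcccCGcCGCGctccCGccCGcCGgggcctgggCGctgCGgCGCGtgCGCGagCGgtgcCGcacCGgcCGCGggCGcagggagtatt
CBX7 (chr22:39152681-39152930, minus strand): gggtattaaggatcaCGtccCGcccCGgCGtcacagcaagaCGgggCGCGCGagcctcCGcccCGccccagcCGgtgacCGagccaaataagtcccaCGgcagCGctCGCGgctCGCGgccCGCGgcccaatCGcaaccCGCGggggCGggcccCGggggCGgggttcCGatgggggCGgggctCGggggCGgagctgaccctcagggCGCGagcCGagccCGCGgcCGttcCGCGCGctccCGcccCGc

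The PCGF1 stretch held 12 CG dinucleotides, close to the median of 11 over 35116 promoter stretches of this length. The other three held 37 in YAF2, 45 in CBX6 and 41 in CBX7, and the median of the 34 members was 25.5. Members lower in primed hESCs had a median of 30.5 and those higher had a median of 22. The RefSeq start of CBX7 lay 2848 bases from the start of the isoform counted here, while those of PCGF1, YAF2 and CBX6 matched it. The letters CACGTG, the site that MAX and its partner MGA of a PCGF6-containing PRC1 recognise, read the same on both strands and contain a CG. They stood in 7 of the 34 stretches, those of EHMT2, BMI1, YAF2, KMT2D, CBX6, BCOR and KDM6A, against 6.35% of all promoters. A match is a description of letters, and binding was not measured.

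In PRC2, 7 of 9 members were called, 2 higher and 5 lower in primed hESCs, against 70.0% of all genes called. The catalytic and scaffold subunits were all lower by modest amounts under TMM. The log2 fold change was -0.76 for EZH2, the main H3K27 methyltransferase, and -0.63 for its paralog EZH1. It was -0.72 for EED, which reads methylated H3K27, and -0.56 for SUZ12, the scaffold. With library size, EZH2 and EED were at -0.12 and -0.08 and were no longer called, and EZH1 and SUZ12 were at 0.0011 and 0.079. Without primed replicate 1, SUZ12 was at -0.20 with an adjusted p of 0.36 and EZH1 at -0.32 with 0.23 in edgeR's test, and without primed replicate 2, EED was at -0.46 with 0.061. SUZ12 has near-identical copies elsewhere in the genome, and alignments were counted at every place, so its count is uncertain.

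The accessory subunits of PRC2 went in different directions. JARID2, which guides PRC2 to its targets, was higher at a log2 fold change of 0.90 (SE 0.15, adjusted p = 1.1e-06, edgeR). Among the Polycomb-like proteins, PHF19 was higher at 0.67, PHF1 lower at -0.89 and MTF2 not called at 0.24. PHF19 lost its call under DESeq2 (adjusted p = 0.074) and without either naïve replicate (0.59 and 0.63), and PHF1 lost its call under library size (-0.26, adjusted p = 0.37, edgeR) and without primed replicate 2 (-0.68, adjusted p = 0.076). PHF1 lies tail to tail with CUTA, whose own counts were 1573 to 1987 against 54 to 92 for PHF1, and strand was not used in the counting.

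AEBP2, a cofactor that stimulates PRC2, had the smallest change of the PRC2 group by the rule and a larger one by its Ensembl canonical isoform. The isoform counted, AEBP2-207 (chr12:19404066-19518192), had 614 and 651 counts in naïve hESCs against 747 and 904 in primed hESCs, a log2 fold change of 0.07. The Ensembl canonical isoform AEBP2-201 (chr12:19439492-19522227) had 314 and 386 against 694 and 841. In a fit of the canonical isoforms of all genes, where 70.3% of genes were called, AEBP2 was higher in primed hESCs by 0.82 (SE 0.16, adjusted p = 5.7e-06, edgeR). AEBP2-207 starts 35426 bases further upstream, and AEBP2-201 runs past it at the 3′ end, so the difference of their counts is a net of both ends. At least 300 and 265 alignments in the naïve libraries lay on AEBP2-207 and not on AEBP2-201, that is 48.9% and 40.7% of its count. In the primed libraries they were at least 53 and 63, or 7.10% and 6.97%. These are lower bounds, since alignments on the end of AEBP2-201 alone reduce the net by an unknown amount in each state. Pseudogenes also lie inside the AEBP2-207 span. Of these, PDCD5P1 had 65 and 65 counts in naïve hESCs against 81 and 93 in primed hESCs. EEF1A1P4 had 33 and 33 against 46 and 69, and ENSG00000271462 had 31 and 21 against 0 and 1. Their part in the AEBP2 counts was not tested.

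AEBP2 also gave the single member isoform called in the test of isoform usage, out of 577 isoforms tested, against 0.556% of all isoforms. AEBP2-206 is a transcript of 4 exons that shares the upstream start. Its fraction of the gene's length-scaled isoform counts was 34.5% and 31.2% in naïve hESCs against 20.6% and 19.4% in primed hESCs. The means were 32.8% ± 2.3 and 20.0% ± 0.88 (SD, n = 2), a difference in isoform fraction (dIF) of -0.13, with an adjusted p of 0.0021 by edgeR's diffSpliceDGE. Without either naïve replicate the call was lost, at adjusted p of 0.20 and 0.072 in edgeR's test. A threshold on p alone gave 26 member isoforms in 7 genes (AEBP2, EHMT1, KDM1A, KDM2B, KDM6A, KMT2A and PCGF3), against 4.27% of all isoforms. Without length the dIF of AEBP2-206 was -0.08, under the threshold of 0.1.

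In PRC1, 13 of 16 members were called, 4 higher and 9 lower, against 70.0% of all genes called. PRC1 held 8 of the 9 members called beyond a log2 fold change of 1. That is 8 of 16 PRC1 members against 47.1% of all genes, near the background. The catalytic RING proteins were lower, RING1 at -0.95 and RNF2 at -0.45. Under library size RING1 was no longer called at -0.31 and RNF2 was at 0.18. Without primed replicate 1, RING1 was at -0.74 with an adjusted p of 0.065 (edgeR). The RNF2 call was also lost without each of 3 libraries, naïve replicate 2 and either primed replicate.

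Among the PCGF paralogs, which define the PRC1 subtypes, 4 of 6 were lower under TMM. PCGF1, of the non-canonical PRC1 with BCOR and KDM2B, had 275 and 256 counts in naïve hESCs against 74 and 74 in primed hESCs, at chr2:74505043-74507695. Its log2 fold change was -2.15 (SE 0.20, adjusted p = 1.5e-12, edgeR), a 4.45-fold lower level, and no other gene overlapped its span. BMI1 (PCGF4), of canonical PRC1, had 59 and 48 counts against 24 and 27, a log2 fold change of -1.38 (SE 0.31, adjusted p = 1.5e-04, edgeR). The readthrough gene COMMD3-BMI1, which runs across BMI1, had 347 and 353 counts against 77 and 60. All naïve libraries lay above all primed libraries for both PCGF1 and BMI1, where levels did not overlap for 84.4% of all genes.

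PCGF6, of the PRC1 that works with MGA and L3MBTL2, was at -0.93 and PCGF3 at -0.78, both called lower under TMM. Under library size neither was called (PCGF6 at -0.30, adjusted p = 0.091, and PCGF3 at -0.14, adjusted p = 0.49, edgeR), so that PCGF1 and BMI1 were the PCGF genes lower under both scalings. An antisense RNA inside PCGF3, ENSG00000233799, held 88 and 66 of its naïve alignments and 35 and 23 of its primed ones. PCGF3-AS1, which runs across PCGF3 on the opposite strand, had 236 and 204 counts against 262 and 292. PCGF2 (MEL18) had the smallest change of PRC1, with 248 and 270 counts against 279 and 300 and a log2 fold change of -0.15 (SE 0.17, adjusted p = 0.45, edgeR), and was called higher under library size (0.49, adjusted p = 0.012). CISD3, which crosses the PCGF2 span on the opposite strand, had 257 and 324 counts against 330 and 350. PCGF5 was not called at -0.25.

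Levels were also divided by the exon length of the canonical isoform, although counting covered whole spans with introns. Whether such counts grow with exon length was not tested. On this measure, per kilobase of exon, the order of the PCGF levels differed between the states. PCGF1 was first in the naïve libraries, at 13.1 and 11.1 CPM per kb, and stood behind PCGF6 and PCGF2 in the primed libraries, at 2.77 and 2.66. PCGF6 stood at 9.71 and 9.39 in naïve and 4.86 and 5.13 in primed hESCs, where it was first. PCGF2 stood at 4.08 and 4.01, then at 3.6 and 3.71. PCGF3 followed at 2.52 and 2.03, then 1.26 and 1.39. BMI1 and PCGF5 were last in both states, and in the primed libraries they lay close together, at 0.23 and 0.25 for BMI1 and 0.20 and 0.19 for PCGF5. In counts without length, PCGF6 was first in both states, at 501 and 536 in naïve and 320 and 352 in primed hESCs. PCGF1 had 275 and 256, then 74 and 74, so its first place in naïve hESCs depended on the length scaling.

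**Figure D2:**
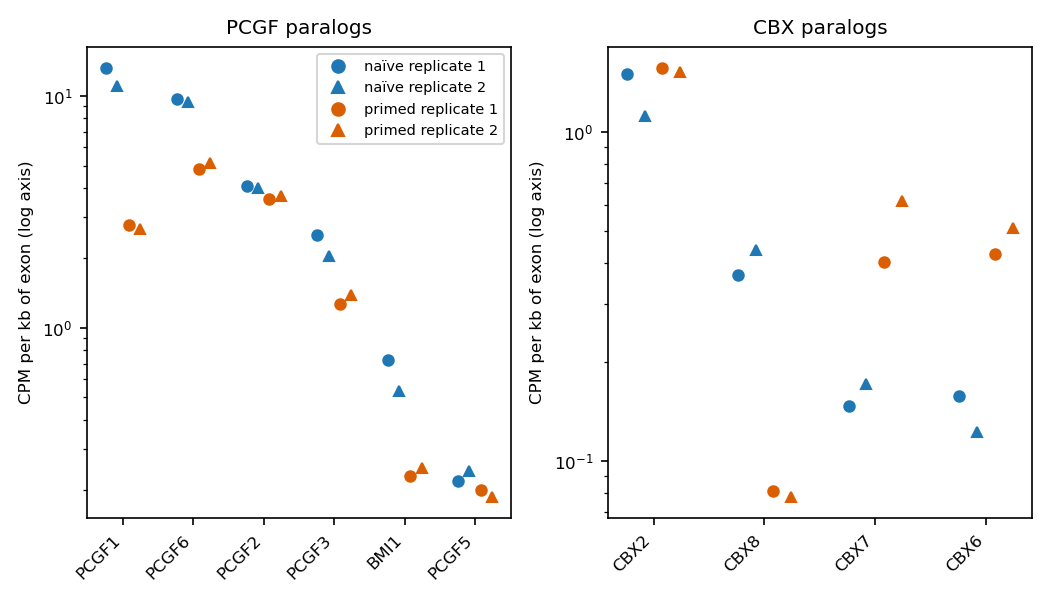
Levels of the PCGF paralogs (left) and CBX paralogs (right) in CPM per kb of canonical exon (log axis), with 1 point per library, blue for naïve and orange for primed. On this length-scaled measure PCGF1 falls from the top of the PCGF group, and CBX8 falls below CBX6 and CBX7. In counts without length PCGF6 is first in both states.

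The CBX paralogs, which read H3K27 methylation in canonical PRC1, exchanged places. CBX8 had 32 and 42 counts in naïve hESCs against 9 and 9 in primed hESCs, a log2 fold change of -2.33 (SE 0.40, adjusted p = 1.9e-06, edgeR). With 9 counts in each primed library, CBX8 passed the filter of 10 counts through the naïve libraries alone, and so could pass only as a gene that was higher there. It had no value without either naïve replicate. With no count filter it was at -2.33. CBX7 had 14 and 18 counts against 49 and 78, a log2 fold change of 1.67 (SE 0.34, adjusted p = 3.2e-05, edgeR). CBX6 had 22 and 19 counts against 76 and 95, a log2 fold change of 1.74 (SE 0.30, adjusted p = 2.8e-06, edgeR). The libraries of the states did not overlap for any of these genes, nor for 84.4% of all genes. No other gene overlapped the spans of CBX8 and CBX6. An antisense RNA inside CBX7, ENSG00000279833, had 1 and 2 counts against 11 and 16.

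CBX2 was the highest of these CBX genes in both states, at 1.5 and 1.12 CPM per kb in naïve and 1.56 and 1.53 in primed hESCs, and was not called. In the naïve libraries CBX8 came next at 0.37 and 0.44, and CBX7 (0.15 and 0.17) and CBX6 (0.16 and 0.12) overlapped each other. In the primed libraries CBX7 (0.40 and 0.62) and CBX6 (0.43 and 0.51) again overlapped and CBX8 was last at 0.08 in both. The ratio of CBX8 to CBX7 counts was 2.29 and 2.33 in naïve hESCs against 0.18 and 0.12 in primed hESCs.

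The subunits of non-canonical PRC1 split. RYBP, which stimulates ubiquitin transfer, had 515 and 734 counts against 309 and 433, a log2 fold change of -1.05 (SE 0.17, adjusted p = 4.7e-07, edgeR). Its paralog YAF2 had 47 and 70 counts against 25 and 24, a log2 fold change of -1.55 (SE 0.31, adjusted p = 2.5e-05, edgeR). BCOR, the PCGF1 partner, had 64 and 103 counts against 247 and 258, a log2 fold change of 1.30 (SE 0.21, adjusted p = 5.7e-07, edgeR). KDM2B, which brings PCGF1 to CpG islands, was higher by 0.91. Its divergent transcript KDM2B-DT, which overlaps its span, had 42 and 41 counts against 198 and 226. RNF34, which crosses the KDM2B span on the opposite strand, had 312 and 304 counts against 505 and 541. PCGF1 was lower in primed hESCs and its partners BCOR and KDM2B were higher.

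**Figure D3:**
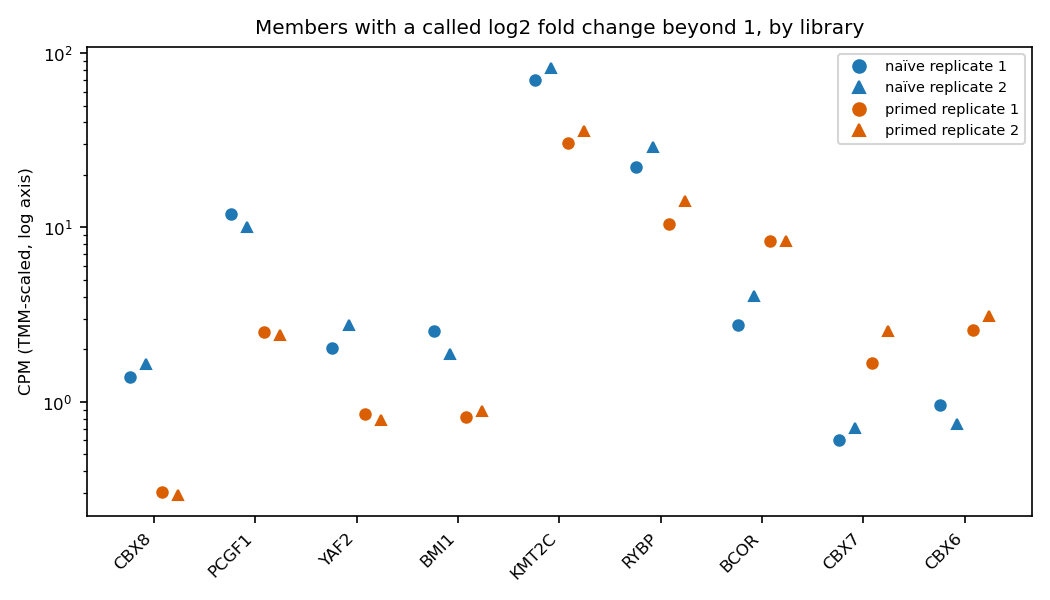
Levels of the 9 members with a called log2 fold change beyond 1, in TMM-scaled CPM (log axis), with 1 point per library and the genes ordered by fold change. In each gene both naïve libraries lie on one side of both primed libraries, which follows largely from choosing genes by their change. Levels did not overlap for 84.4% of all genes, and CBX8 passed the count filter only through the naïve libraries.

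Of the 8 H3K4 enzymes, 3 were called, 2 higher and 1 lower, against 70.0% of all genes called. KMT2A (MLL1) was higher by 0.96 and KMT2D (MLL4) by 0.64. Both spans are crossed by other genes, and the part of their alignments in these changes was not tested. ENSG00000285827, across KMT2A on the same strand, had 7906 and 7146 counts against 3913 and 4516. Across KMT2D, ENSG00000288710 on the same strand had 429 and 394 counts against 414 and 402. DDN-AS1, on the opposite strand of KMT2D, had 419 and 371 against 391 and 378. KMT2C (MLL3), the KMT2D paralog, had 1615 and 2086 counts against 892 and 1100, a log2 fold change of -1.20 (SE 0.15, adjusted p = 2.6e-09, edgeR). The pseudogene FABP5P3 on the opposite strand, which crosses an end of the KMT2C span, had 814 and 1148 counts against 427 and 388, and near-identical copies of KMT2C parts also exist, so this count is uncertain. The KMT2D call was lost without naïve replicate 1 (0.42, adjusted p = 0.11, edgeR).

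KMT2B was not called at -0.39, SETD1A at 0.14 and SETD1B at 0.08. IGFLR1, which crosses the KMT2B span on the opposite strand, had 127 and 162 counts against 125 and 107. KDM1A (LSD1), an H3K4 demethylase, was at -0.30 with an adjusted p of 0.057 in edgeR's test and was called under DESeq2 at -0.35 (adjusted p = 0.026). KDM5B, an H3K4 demethylase, had the smallest change, with 1725 and 2031 counts against 2118 and 2354 and a log2 fold change of -0.05 (SE 0.14, adjusted p = 0.75, edgeR). The pseudogene COX7CP2 inside KDM5B held 483, 543, 575 and 701 of these alignments.

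Both H3K27 demethylases were lower under TMM. KDM6A (UTX) had 945 and 1140 counts against 858 and 941, a log2 fold change of -0.52 (SE 0.15, adjusted p = 0.0019, edgeR), and was at 0.12 under library size. The call of KDM6A was lost without either primed replicate. KDM6B (JMJD3) was lower, at 0.501 times its naïve level. It was not called at -0.37 under library size, nor without primed replicate 1 (-0.69, adjusted p = 0.078, edgeR). Of the H3K9 methyltransferases, EHMT2 (G9a) was higher by 0.68. EHMT1 (GLP), its partner, had 621 and 631 counts against 830 and 997, a log2 fold change of 0.23 (SE 0.15, adjusted p = 0.16, edgeR). The antisense gene EHMT2-AS1 across EHMT2 had 61 and 84 counts against 202 and 188.

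Paralog ratios within a library do not depend on the scaling between libraries. Over 15 pairs, 7 ratios moved by more than 1.5-fold between the states, and in 14 pairs the naïve and primed libraries did not overlap. These shares were not computed for other gene pairs, and the levels of single genes did not overlap for 84.4% of all genes. With 2 libraries per state the exact permutation test (two-sided) cannot go below p = 0.333 (0.357 adjusted over the 15 pairs), so these are descriptions. The KMT2C to KMT2D ratio was 14.0 and 12.8 in naïve hESCs against 3.98 and 3.53 in primed hESCs. The KMT2A to KMT2B ratio was 2.168 and 1.91 against 4.60 and 5.77. The PCGF1 to PCGF6 ratio was 0.55 and 0.48 against 0.23 and 0.21, and the BMI1 to PCGF2 ratio was 0.24 and 0.18 against 0.09 and 0.09. The spans of KMT2A, KMT2B, BMI1 and PCGF2 are crossed by other genes named above, whose part in these ratios was not tested. The CBX2 to CBX7 ratio was 11.4 and 7.33 against 4.35 and 2.78, and the PHF1 to MTF2 ratio was 0.10 and 0.09 against 0.04 and 0.04.

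The EZH2 to EZH1 ratio stayed between 2.11 and 2.50 in all 4 libraries. The SETD1A to SETD1B ratio overlapped between the states, at 1.41 and 1.27 against 1.07 and 1.72. RNF2 to RING1 went from 5.69 and 4.93 to 7.85 and 6.98, a shift of 0.48 on the log2 scale.

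**Figure D4:**
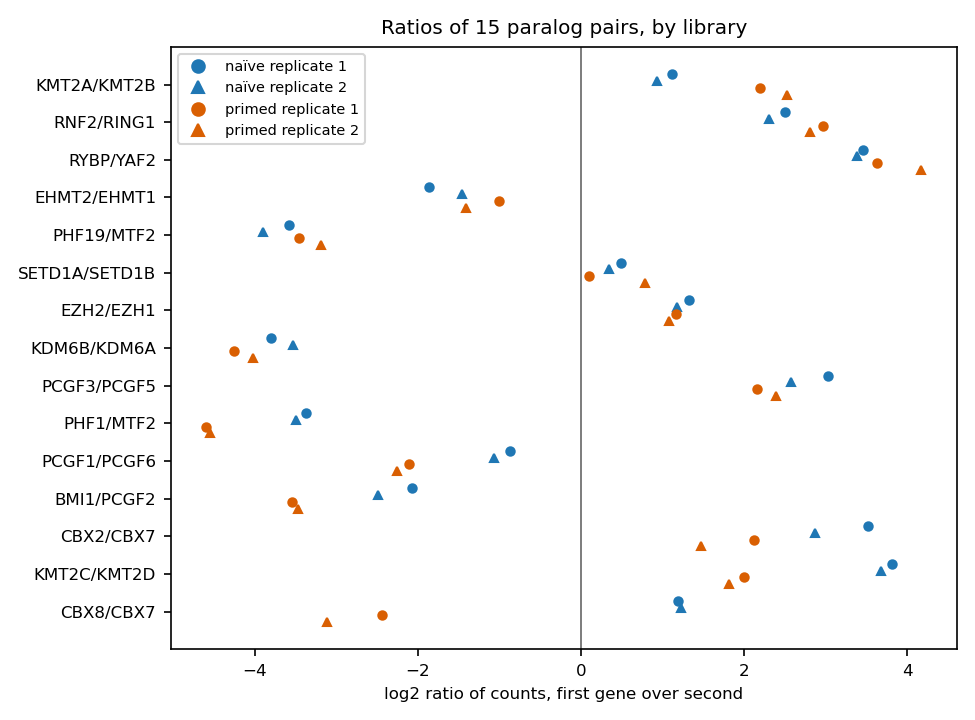
Log2 ratio of counts of 15 paralog pairs (first gene over second), with 1 point per library and pairs ordered by the shift from naïve (blue) to primed (orange). CBX8/CBX7 at the bottom shifts farthest, by -3.99, and KMT2A/KMT2B at the top shifts by 1.34.

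A count over a whole span and a count over the end of a gene did not always move together. For each gene the 3′ stretch was the shortest annotated isoform that ends within 500 bases of the canonical 3′ end. This measure and the genes named from it were chosen after the values were seen. It covered less than 33.3% of the counted span in 15 members. The share of a member's alignments that overlapped its 3′ stretch was higher in both primed libraries than in both naïve ones for 11 of these 15, and lower in none. Over 4446 genes with such a stretch, 39.0% had a higher and 25.5% a lower share.

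KDM6A, whose span overlaps no other gene, had 53 and 80 alignments on its last 8102 bases (KDM6A-205) in naïve hESCs against 137 and 116 in primed hESCs. The share was 5.61% (95% Wilson interval 4.31 to 7.26) and 7.02% (5.67 to 8.65) in naïve hESCs and 16.0% (13.7 to 18.6) and 12.3% (10.4 to 14.6) in primed hESCs. In a fit of the 3′ stretches of all genes, in which 68.9% were called, KDM6A was higher in primed hESCs by 0.61 (adjusted p = 0.024, edgeR), whereas over its whole span it was lower. In raw counts the primed libraries held more alignments at its end and fewer elsewhere, 721 and 825 against 892 and 1060. They were also smaller, at 23542400 and 24673400 gene-level counts against 29618000 and 30978800 in the naïve libraries. Whether alignments fell elsewhere thus depends on the scaling, and with library size the whole span was at 0.12.

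KDM1A had 430 and 485 alignments on its 3′ stretch of 2810 bases in naïve hESCs against 766 and 786 in primed hESCs. Its share was 33.4% (30.9 to 36.01) and 31.7% (29.4 to 34.1) against 56.2% (53.6 to 58.8) and 53.9% (51.4 to 56.5). The log2 fold change of the stretch was 0.44 (adjusted p = 0.011, edgeR), against -0.30 for the whole span. An RNA on the opposite strand, ENSG00000240553, runs across the whole of KDM1A.

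KMT2A had 18 and 19 alignments on its 3′ stretch in naïve hESCs against 108 and 187 in primed hESCs, a log2 fold change of 2.66 against 0.96 for the whole span. The antisense gene TTC36-AS1 overlaps this stretch, with 23, 21, 108 and 189 counts, and without strand the pair cannot be told apart. In the isoform usage test, the 3′ isoforms of 3 of the 15 differed from the rest of their gene (KDM6A, KDM1A and KMT2A). Their adjusted p values were 2.6e-04, 0.0023 and 0.0010 in that order (edgeR). These 3 isoforms are not called there since their dIF was under 0.1. Of 16234 3′ stretch isoforms over all genes, 3.44% had an adjusted p under 0.05. That set was not limited to short stretches, as the 15 were, so its share is not a like background.

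KMT2C had 59 and 81 alignments on its last 6277 bases in naïve hESCs against 63 and 63 in primed hESCs. The stretch was at -0.47 with an adjusted p of 0.11 in edgeR's test, while the rest of the span stood at 0.424 times its naïve level. EHMT1 was called higher on its stretch (0.82) and not over its span. EZH2, EED, PHF1 and PCGF1 were lower and BCOR, KMT2D and EHMT2 higher on both.

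**Figure D5:**
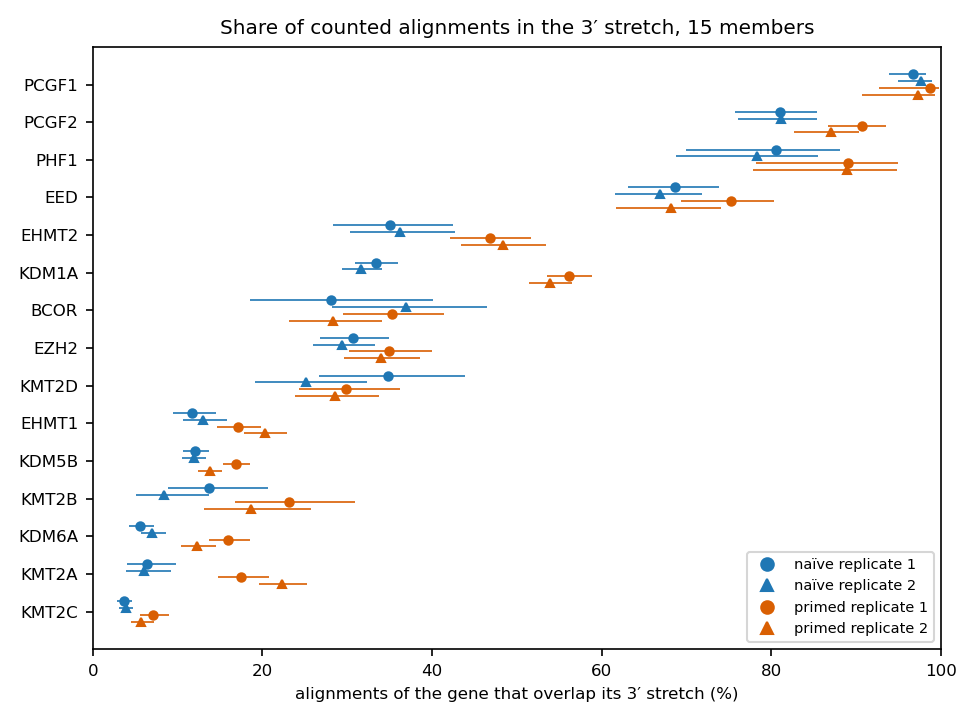
Share of each member's counted alignments that overlap its 3′ stretch (x axis, percent), for the 15 members whose stretch is under 33.3% of the counted span, with 1 point per library and 95% Wilson intervals, which cover counting error only. For KDM1A, KDM6A and KMT2A both primed libraries (orange) lie to the right of both naïve libraries (blue), with intervals that do not overlap.

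Other chromatin genes of the same pathways were read from a list of 71, of which 69 passed the filter (EPOP and EZHIP did not). Of the 69, 45 were called, 15 higher and 30 lower, with a median log2 fold change of -0.18. The share called was 65.2%, against 70.0% of all genes, with 37.4% higher and 32.6% lower. Under library size the split was 34 higher and 8 lower, against 56.2% and 16.3% of all genes. Of the 4 other PRC2 subunits tested, 1 was higher (LCORL, 0.82) and 1 lower. Of 17 other PRC1 subunits, 5 were higher and 8 lower. AUTS2, a PRC1 partner linked to transcription activation, had 66 and 92 counts in naïve hESCs against 1478 and 2102 in primed hESCs, a log2 fold change of 4.19. MGA, the PCGF6 partner, had 2110 and 3604 counts against 587 and 680 (-2.47), and FBRS, a PCGF3 and PCGF5 partner, had 29 and 34 against 8 and 8 (-2.26). FBRS, and ASXL3 and RCOR2 below, passed the count filter only through the state in which they were higher, which fixed the direction of any change.

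Of 6 genes for H2A deubiquitinases and their ASXL cofactors 1 was higher and 2 lower, and ASXL3 had 0 and 5 counts against 14 and 16 (2.23). Of 12 COMPASS subunits, the partners of the H3K4 methyltransferases, 1 was higher and 6 were lower, with WDR82 changed most at -1.13. The list of other H3K4 demethylases held KDM5A, KDM5C and KDM1B with the cofactors RCOR1, RCOR2 and RCOR3. All 6 were called, 1 higher (RCOR2) and 5 lower, against 70.0% of all genes called. RCOR1, the KDM1A cofactor CoREST, had 1721 and 1754 counts against 460 and 599 (-2.03). Its paralog RCOR2 had 1 and 4 counts against 27 and 33 (3.22), a fitted value that depends on the prior count at so few naïve counts. Of 16 other H3K9 genes 3 were higher and 7 lower, with ZNF644, an EHMT1 and EHMT2 partner, highest at 1.90. Of 8 H3K36 and H3K79 enzymes 3 were higher and 1 lower, with KDM8 at 2.30.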

How the data were processed

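The authors sequenced cDNA on a PromethION, aligned the reads to GRCh38 with minimap2 and deposited raw counts from featureCounts 2.0.0 on the Ensembl transcripts, per the file headers. Counting covered the full span of a transcript, introns included and strand ignored. An alignment counted for every transcript it overlapped and, with the option -M in the header, at every place a read aligned.

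Of 244825 transcripts, 242542 matched GENCODE release 44 by identifier, and the 2283 others, with 1.0% of the counts, were left out. Expression was tested with edgeR 4.0.16 (TMM, quasi-likelihood, two-sided) in R 4.3.3, with state as the term, on genes reaching 10 counts in 2 or more libraries. Isoform usage was tested with diffSpliceDGE, where a call needed a dIF beyond 0.1 besides an adjusted p under 0.05. Standard errors were derived from the quasi-likelihood test. DESeq2 1.42.0, other scalings, filters and gene values, a replicate block and each library left out in turn were alternatives. The fits were tested on simulated data.

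Members named with counts were those called beyond a log2 fold change of 1 and the least changed of each group; related genes were named when called beyond 2 or first by change in their group, and isoforms when called. A related gene that met this rule is not reported here. The members and lists were chosen with earlier results of these data known. The canonical and 3′ gene values, KDM1A and the overlapping genes were chosen after the values were seen. Replicates of a state were distinct libraries, at a chi-square per degree of freedom of 13.2 (naïve) and 7.82 (primed).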

Additional observations from a re-analysis of the deposited data

How the results depend on the processing

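Of the 26 members called, 12 kept call and direction in every alternative that gave a value, 7 higher and 5 lower. The 5 lower include CBX8, which passed the count filter only through the naïve libraries and had a value in 11 of 14 alternatives. With library size the calls were 18 higher and 6 lower for the members and 34 higher and 8 lower for related genes, and EZH1 (0.0011), SUZ12 (0.079), RNF2 (0.18), PCGF2 (0.49), PCGF5 (0.38), KMT2B (0.24), KDM5B (0.58), KDM1A (0.33) and KDM6A (0.12) turned positive. With the isoform overlapping no other gene, 19 related genes were lower, SUZ12 was at 0.0071, SETD1A at -0.37, KDM5B at 0.22 and EHMT1 at -0.18. Beyond a log2 fold change of 1, 9 members remained (3 higher, 6 lower) and 20 related genes, 10 of them lower. KDM5B was at 0.046 with at least 50 counts and CBX2 at -0.26 with isoforms summed. On the 3′ stretch KMT2B was at 0.53, KDM5B at 0.28, KDM1A at 0.44, KDM6A at 0.61 and the EZH2/EZH1 shift at 0.067. Apart from scaling and the choice of alignments, which follow from construction, the cause was not tested.

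Member isoforms called numbered 0 at a dIF of 0.2, 2 at 0.05 (AEBP2-206 and KMT2A-219) and 0 without length; all are edgeR counts, with 72 isoforms at an unadjusted p under 0.05 in the main test.

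Leaving out each library in turn, with the lone library assumed to vary like the others, gave 21 to 25 members called, 7 to 10 higher and 11 to 18 lower, 31 to 42 related genes, 14 of them higher and 17 to 28 lower, 7 to 10 pairs moved and 0 to 2 isoforms. Values that changed sign ranged from -0.016 to 0.34 for AEBP2, -0.22 to 0.041 for PCGF2, -0.014 to 0.43 for CBX2, -0.055 to 0.60 for SETD1A, -0.017 to 0.26 for SETD1B and -0.16 to 0.16 for KDM5B, none of them called in the main test. Calls were gained by KDM1A and KMT2B without naïve replicate 1, by EHMT1 without primed replicate 1 and by MTF2 without primed replicate 2.

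The replicate numbers were shared by the states, but the deviations of same-numbered libraries correlated at 0.06 and only 2 pairs exist, so the numbers were not taken as pairs. With the replicate block 27 members (KDM1A added, adjusted p = 0.037), 46 related genes, 7 pairs and 1 isoform were called.

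Depth limits the members with few counts most; CBX8 had at most 42 counts in a library and PCGF5 at most 44.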
